A study of Caenorhabditis elegans with 2 samples.

Results

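Binding of ZAG-1 was described here at 78 homeobox genes of Caenorhabditis elegans, of 19973 protein-coding genes in the WBcel235 annotation. The members were chosen by name. They are the protein-coding ceh- genes with a number, apart from the 6 genes of the ONECUT family. With them are 21 further homeobox genes of other names, such as unc-42, lin-39 and ttx-3. The data came from chromatin immunoprecipitation and sequencing of whole, mixed-sex L1 larvae of strain OP83, which has the unc-119(ed3) mutation on chromosome III and the integrated transgene wgIs83, with zag-1 fused to eGFP. There were 2 biological replicates in 1 group, so no conditions were compared and no test between conditions was possible. Both replicates carry the transgene, no control sample was used here, and a whole larva mixes the few cells that express a factor with all others. How many reads either library held is unknown here.

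Homeobox genes encode transcription factors that bind DNA through a homeodomain. In nematodes as in other animals, Hox members pattern the body along its axis, and many LIM, POU and paired-like members act as selectors of the identity of single neuron types. ZAG-1 is itself a zinc finger homeodomain protein of the ZEB class, known in the worm from mutants with defects in axon guidance and in neuron identity.

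The authors deposited a pooled list of 30000 entries named as peaks and background, a list of 30000 for each replicate, and an optimal list of 478 peaks thresholded on reproducibility. Most pooled entries are not called as bound. Each entry has a signal value of the authors' own, of unstated formula, so it ranks entries within a list and is not compared between lists. Rank 1 is the highest signal. The nearest start of a protein-coding transcript, up to 5000 bp from the summit, decided which gene an entry went to. Nearness does not show that a gene is controlled from an entry.

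The homeobox genes ceh-5 and ceh-22, both NK-like, were the members assigned an optimal peak, and neither peak lay in the body or at the start of the gene it was assigned to. The next entries lay in introns or upstream sequence of ceh-18, lim-4, lin-39 and ceh-14, with ranks from 883 to 1112. To show what was found at such entries, the 201 bases centred on the summit of the highest entry are printed for 5 of the leading members, from the WBcel235 genome (RefSeq), on the plus strand, at chrV:10677376-10677576, chrX:3857147-3857347, chrX:3871543-3871743, chrIII:7535435-7535635 and chrX:7533412-7533612 in that order. Capitals mark matches to the homeodomain core TAATTA and to the repeat GAGAGA, and none of the 5 windows overlaps an annotated UTR or coding base.
ceh-22: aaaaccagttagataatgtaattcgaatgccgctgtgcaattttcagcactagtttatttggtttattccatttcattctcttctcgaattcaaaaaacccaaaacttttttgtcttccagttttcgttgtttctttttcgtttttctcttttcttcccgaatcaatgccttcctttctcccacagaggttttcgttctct
ceh-18: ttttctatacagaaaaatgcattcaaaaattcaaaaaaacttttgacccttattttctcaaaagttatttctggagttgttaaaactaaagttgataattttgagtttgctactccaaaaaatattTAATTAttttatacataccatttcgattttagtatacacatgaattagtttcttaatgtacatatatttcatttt
lim-4: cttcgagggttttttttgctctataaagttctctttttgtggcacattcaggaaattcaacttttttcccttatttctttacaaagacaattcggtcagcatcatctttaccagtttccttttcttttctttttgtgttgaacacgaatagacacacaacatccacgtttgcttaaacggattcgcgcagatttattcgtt
lin-39: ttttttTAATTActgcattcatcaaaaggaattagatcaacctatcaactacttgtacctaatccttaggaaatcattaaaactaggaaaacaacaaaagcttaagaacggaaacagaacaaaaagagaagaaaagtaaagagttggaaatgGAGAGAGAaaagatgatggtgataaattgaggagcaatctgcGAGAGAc
ceh-14: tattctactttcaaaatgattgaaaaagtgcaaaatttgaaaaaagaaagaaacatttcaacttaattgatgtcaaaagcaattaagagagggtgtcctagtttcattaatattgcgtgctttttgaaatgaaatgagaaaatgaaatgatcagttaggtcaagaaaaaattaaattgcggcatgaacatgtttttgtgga

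The ceh-22, lim-4 and ceh-14 windows hold no match to any of the 6 hexamers searched, on either strand. The ceh-18 window holds 1 TAATTA in AT-rich sequence, with a GC content of 21.9%. The lin-39 window holds 1 TAATTA and 3 matches to GAGAGA, of which 2 overlap each other within GAGAGAGA. A match is a description of the letters and not evidence of a site.

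In all, 2 of the 78 members were assigned an optimal peak (2.56%, 95% Wilson interval 0.706 to 8.88, counting error only), where 2.18% of all protein-coding genes were. The member share was close to that background. The pooled list reached far more of them: 62 of 78 members had 1 or more pooled entries (79.5%, 69.2 to 87.0), against 63% of all genes. Among the 5000 highest pooled entries 15 members were represented (19.2%, 12 to 29.3), against 18.1% of all genes. The member share was above the background in the whole list and near it among the 5000 highest pooled entries, and no test was made of these differences.

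**Figure D1:**
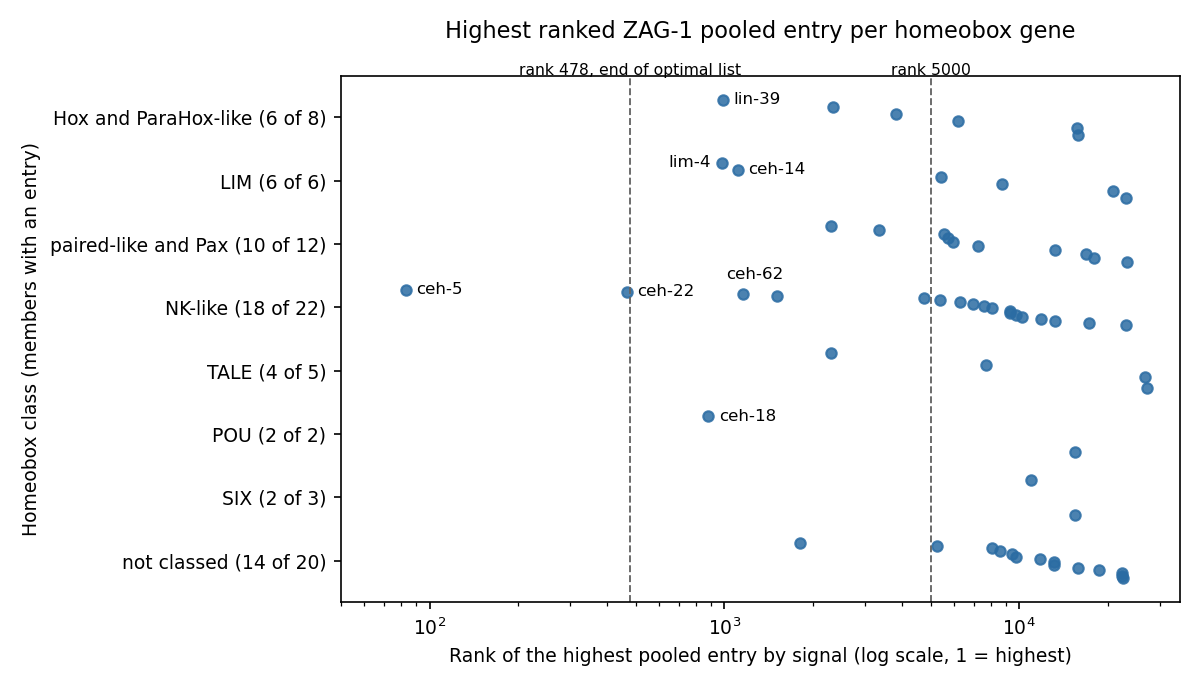
Rank of the highest pooled entry of each member (x axis, log scale, 1 is the highest signal), by homeobox class, with the number of members that have an entry in brackets. Each point is 1 gene. Only ceh-5 and ceh-22 lie left of rank 478, where the optimal list ends, and 13 further members lie between there and rank 5000.

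ceh-5 led the list. This gene is short and lies on chromosome I from 9727169 to 9728034 on the plus strand, overlapping the longer gene ocrl-1, which runs from 9715321 to 9728006 on the minus strand. Its highest entry, chrI:9725287-9725630 on ce11, had a pooled signal of 53.8, a rank of 83 and a −log10 q of 2.58. The entry ranked 97 in replicate 1 (signal 21.6) and 85 in replicate 2 (signal 35.6), so both libraries placed it near the top of their own lists. Its summit lay 1710 bp upstream of the start of ceh-5, in the annotated 3′ UTR of eat-16, a gene for a regulator of G protein signalling that is transcribed on the same strand. Its window held GAGAGA and the hexamers CGTCTC and GACGCA, which were in 36.4% and 27.8% of the windows of all optimal peaks. ceh-5 had 3 more pooled entries, at ranks 3488, 6979 and 23692, and the first pair lay 475 and 211 bp upstream of the start and were overlapped by the same replicate entries.

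ceh-22, the worm relative of vertebrate Nkx2-5 and a regulator of pharyngeal muscle, had the other optimal peak, at chrV:10677304-10677647. Its pooled signal was 29.9 and its rank 468, close to the end of the optimal list, whose lowest signal was 29.6. The ranks of the overlapping entries were 1114 in replicate 1 (signal 9.96) and 399 in replicate 2 (signal 21.9). The replicates therefore differed in whether this locus was among their own 478 highest entries. The summit lay 2972 bp downstream of the nearest annotated start of ceh-22 and 1707 bp beyond the end of the gene, in intergenic sequence before gsp-1. When starts of genes of every biotype were used, the peak went to the non-coding RNA gene F29F11.17, 341 bp away. With 1 start per gene it went to gsp-1, 4946 bp away. A second pooled entry of rank 2702 (chrV:10677521-10677864) overlapped the optimal one and had its summit within F29F11.17, so these are not separate loci, and the same replicate entries overlap both.

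Outside the optimal list, the first member was ceh-18, a POU homeobox gene known for its part in oocyte maturation signalled from the gonadal sheath. The entry chrX:3857075-3857418 had a signal of 23.6 and a rank of 883, with replicate ranks of 2245 and 1039. Its summit lay in a ceh-18 intron, 550 bp downstream of an annotated start. ceh-18 also had the most pooled entries of any member, 9, spread from 3715 bp upstream to 3027 bp downstream of its starts. Of these, 6 were overlapped in both replicates. The gene is 14.4 kb long and its other entries ranked between 5906 and 20782. Those of rank 8885 and 9888 overlapped each other, so the 9 are not all separate loci.

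Its neighbour on X, lim-4, encodes a LIM homeodomain protein known for the identity of the AWB olfactory neuron. The entry chrX:3871471-3871814, in a lim-4 intron 1752 bp downstream of the start, had a signal of 22.8 and a rank of 978, with replicate ranks of 2617 and 1808. A further lim-4 entry of rank 3904 lay 1925 bp upstream, overlapped in replicate 2 (rank 1767) and not in replicate 1. The 30.2 kb that span ceh-18 and lim-4 held 12 pooled entries, 10 of them assigned to a member and 2 among the 5000 highest.

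Among the other LIM genes, ceh-14, the worm Lhx3 and Lhx4 relative, had entries 780 and 1774 bp upstream of its start. The nearer, chrX:7533340-7533683, ranked 1112 pooled, 1481 in replicate 1 and 3887 in replicate 2. The farther one ranked 4828 pooled and 679 in replicate 1, and no entry of replicate 2 overlapped it. ttx-3, needed for the AIY interneuron, had 6 entries and the highest ranked 5411. lin-11 (best rank 8705), lim-6 (20771) and lim-7 (22974) ranked lower. All 6 LIM members had a pooled entry and the median was 4 per gene, against 63% and a median of 1 over all genes. The median territory of the LIM members, as defined below, was 8.82 kb. Of all genes with a territory between 8 and 10.1 kb, 89.5% had an entry, with 2.91 on average.

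**Figure D2:**
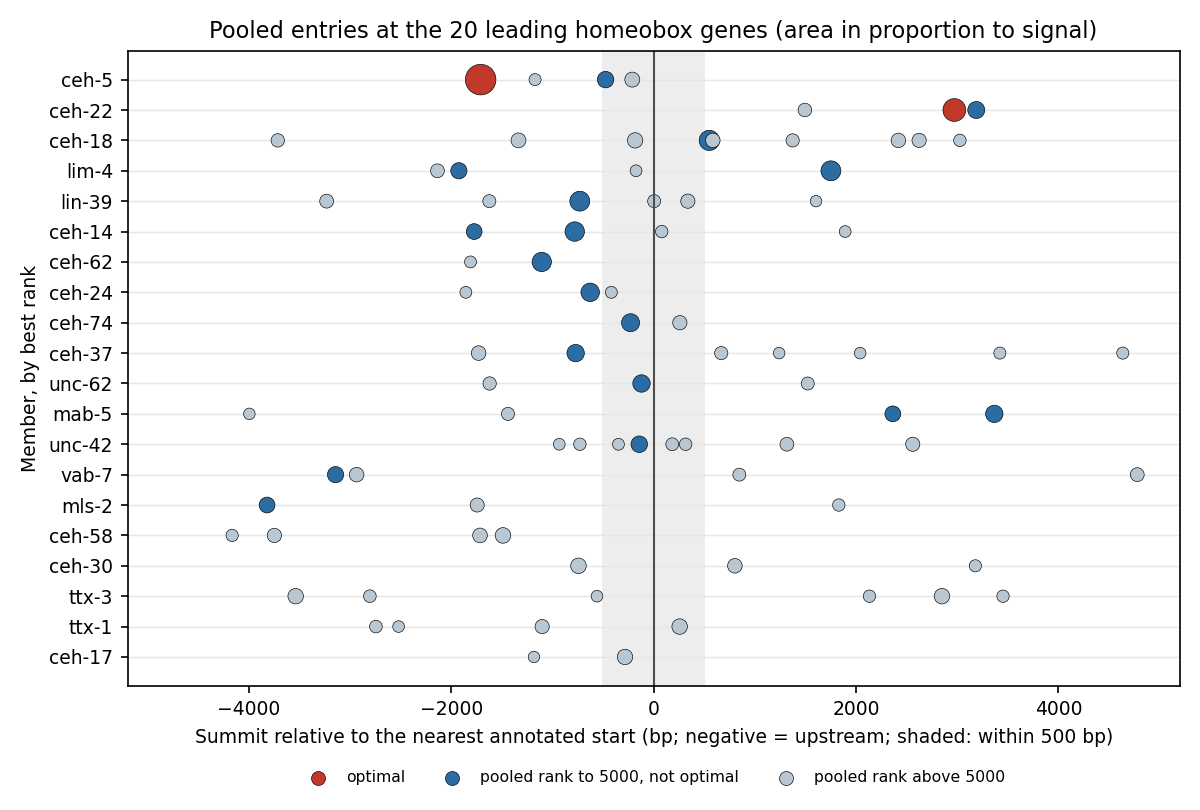
Pooled entries of the 20 members with the highest rank, placed by the distance of the summit from the nearest annotated start (x axis, bp, negative is upstream). The area of a point is in proportion to signal, red marks the optimal peaks at ceh-5 and ceh-22, and most entries lie outside the shaded 500 bp on each side of the start.

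The Hox genes were led by lin-39 and mab-5. lin-39 patterns the mid-body and the vulval precursor cells, and its entry chrIII:7535363-7535706 had a signal of 22.7 and a rank of 987. The summit lay in a lin-39 intron, 730 bp upstream of an internal start. The replicates ranked it far apart, at 10969 in replicate 1 and 1531 in replicate 2. mab-5, a Hox gene of the posterior body that acts in neuroblast migration, had entries of rank 2326 and 4626 within its introns. The first ranked 13218 in replicate 1 and 826 in replicate 2, and the second 2622 and 9937, so replicate 2 placed the first higher and replicate 1 the second.

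The remaining Hox genes ranked lower. ceh-13, the labial-type gene, had 4 entries with a best rank of 6215, none with an overlapping entry in both replicates. egl-5, an Abdominal-B-type gene, had 3 with a best rank of 15802. nob-1 had 1, of rank 15678, which lay 4875 bp upstream, and php-3 had none. From php-3 to the end of nob-1, a stretch of 10.1 kb, the pooled list held 0 entries. The stretch from lin-39 to egl-5 is 288.5 kb and held 77 pooled entries, of which 0 were optimal and 16 were assigned to its Hox members. Its highest entry, at rank 481 just below the optimal list, was assigned to ZK112.4 and not to a homeobox gene. vab-7, the even-skipped relative, had its best entry at rank 3829, 3144 bp upstream (ranks 4801 and 4998 in replicates 1 and 2). pal-1, the caudal relative, had 0 entries in the pooled list and in both replicate lists.

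Of the paired-like genes, ceh-37, an Otx gene that acts in the AWB neuron, had 7 pooled entries with a best rank of 2291, 771 bp upstream. That entry ranked 5243 and 15903 in the replicates. unc-42, which specifies command interneurons and other neurons of the locomotor circuit, had 8 entries, 4 of them within 500 bp of a start. Its highest lay 142 bp upstream within the non-coding RNA gene F46B6.18, at rank 3347. That entry was overlapped by rank 241 of replicate 1 and by no entry of replicate 2. The unc-42 entry of rank 25247 overlapped it, and those of rank 21034 and 26095 overlapped each other. The 8 are therefore not all separate loci. The Otx gene ttx-1, needed for the AFD thermosensory neuron, had a best rank of 5552, and ceh-17, a Phox2 relative, 5745. vab-3, the Pax6 gene, had a best rank of 7251 and 4 entries over a territory of 23.1 kb. unc-4, which sets motor neuron synaptic input, had 1 entry of rank 23136.

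The NK-like class was the largest, with 22 members, 18 with a pooled entry (63% of all genes) and 5 among the 5000 highest (18.1% of all genes). After ceh-5 and ceh-22 these were ceh-62 (chrII:10804459-10804802, rank 1153), ceh-24 (chrV:13812432-13812775, rank 1511) and mls-2 (rank 4737), an HMX-type gene of the mesoderm lineage. The ceh-62 entry lay within the non-coding RNA gene R06F6.13 and ranked 772 in replicate 1 and 7921 in replicate 2. The ceh-24 entry lay in intergenic sequence 627 bp upstream, at ranks 1258 and 2906, and its window held GAGAGA. ceh-30, a BarH gene known for survival of the male CEM neurons, came next with rank 5372, and its neighbour ceh-31 had 10176.

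Among the TALE genes, which encode cofactors of Hox proteins, unc-62, the Meis gene, had an entry 120 bp upstream of its start at rank 2305. The replicates ranked it 5245 and 4851. psa-3 followed at 7697, and the extradenticle-type genes ceh-60 and ceh-20 had 1 entry each, at ranks 26621 and 27021. ceh-40 had 0. The sine oculis-type genes ceh-33 and ceh-32 had best ranks of 10965 and 15436, and ceh-34 had no pooled entry. Of 20 genes not placed in a class, 14 had an entry (63% of all genes). Of the 20, ceh-74 alone was among the 5000 highest (18.1% of all genes), at rank 1808. That entry, 228 bp upstream of the start, lay within cest-2.3. ceh-58 had a best rank of 5243.

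In total 16 members had no pooled entry, while 79.5% of members had one, against 63% of all genes. Lack of an entry was thus less common among the members than among all genes, and this difference was not tested. The 16 were ceh-7, ceh-8, ceh-12, ceh-34, ceh-40, ceh-51, ceh-53, ceh-63, ceh-81, ceh-82, ceh-83, ceh-90, ceh-99, ceh-100, pal-1 and php-3. For 9 of them neither replicate list had an assigned entry either: ceh-7, ceh-12, ceh-40, ceh-53, ceh-81, ceh-82, ceh-83, ceh-99 and pal-1. The share of all genes with no entry in any of these lists is not given. The genes ceh-81, ceh-82 and ceh-83 lie next to each other on chromosome II, between 1730403 and 1736533.

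The members also had more sequence that could be assigned to them. The territory of a gene was taken as the bases within 5000 bp of its starts that are nearer to them than to the start of any other gene. Its median was 6.17 kb for the members and 3.78 kb for all protein-coding genes. The 174 entries of the members came to 3.24 per 10 kb of territory, and the 27569 assigned entries of all genes to 3.02. By band of territory, neither of the 2 members under 2 kb had an entry, against 33.4% of all genes. Between 2 and 4 kb 15 of 22 (68.2%) had one, against 55.7%, and between 4 and 6 kb 9 of 13 (69.2%), against 71.9%. Between 6 and 8 kb it was 12 of 14 (85.7%), against 83.4%, and between 8 and 10.1 kb 15 of 16 (93.75%), against 89.5%. The member share was thus above that of all genes in some bands and below it in others. Above 10.1 kb all 11 members had an entry, against 98.6%, and they had 4.36 entries on average, fewer than the 5.53 of all genes. Under 2 kb the average was 0 against 0.395. It was 1.27 against 0.811 between 2 and 4 kb, and 1.31 against 1.41 between 4 and 6 kb. Between 6 and 8 kb it was 2.14 against 2.07, and between 8 and 10.1 kb 3.19 against 2.91. Entries in the optimal list came to 3.72 per Mb of territory for the members and 4.97 for all genes, the former from 2 peaks. The part of territory in the members' larger share with an entry was not tested.

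**Figure D3:**
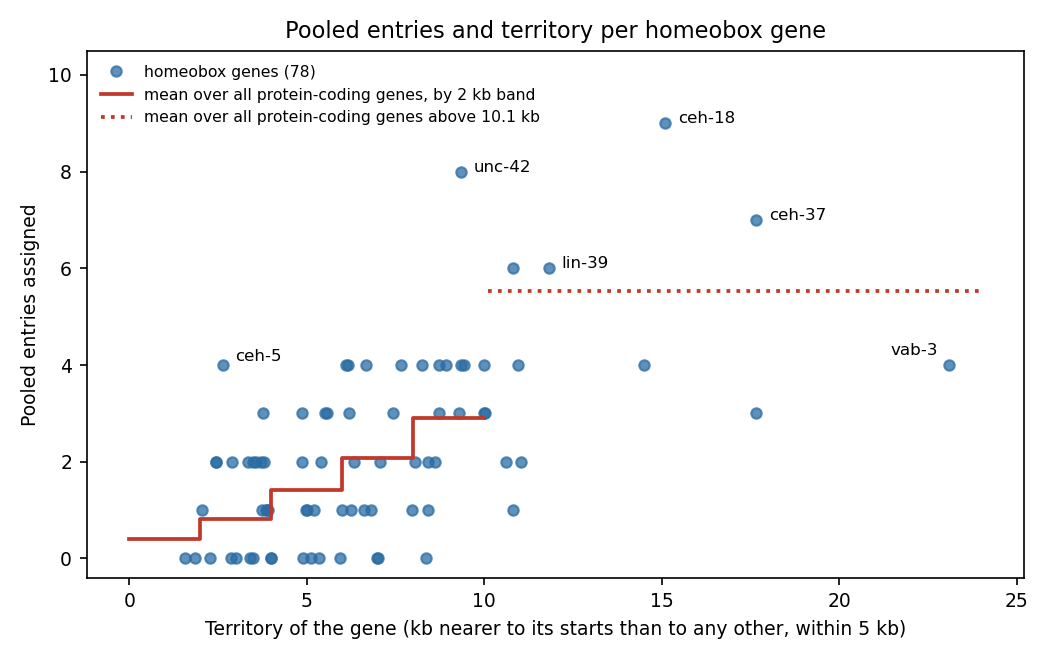
Pooled entries assigned to each of the 78 members (y axis) against its territory in kb (x axis). Each point is 1 gene, and the red lines give the mean over all protein-coding genes by band of territory. ceh-18 (9), unc-42 (8) and ceh-37 (7) stand highest, and ceh-5 has 4 entries in 2.64 kb. Some entries of a gene overlap each other, as at ceh-18, unc-42 and ceh-5, and are not separate loci.

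By median signal, the member entries lay close to the rest, but a smaller share of them was among the 5000 highest. Their median rank was 15564, against 14952 for all assigned entries, and their median signal 10.02 against 10.16. Among the 5000 highest were 20 of the 174 (11.5%), where the share over all genes was 16.8%. Per 100 kb of territory the members had 3.72 such entries and all genes 5.06. No interval was computed for these values, and neither difference was tested. By gene, 19.2% of members were assigned an entry among the 5000 highest, against 18.1% of all genes. A −log10 q above 1 was reached by 7 member entries (4.02%), against 5.10% of all assigned entries. A value above 2 was reached by 1 (0.575%), that at ceh-5, against 1.29% of all.

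**Figure D4:**
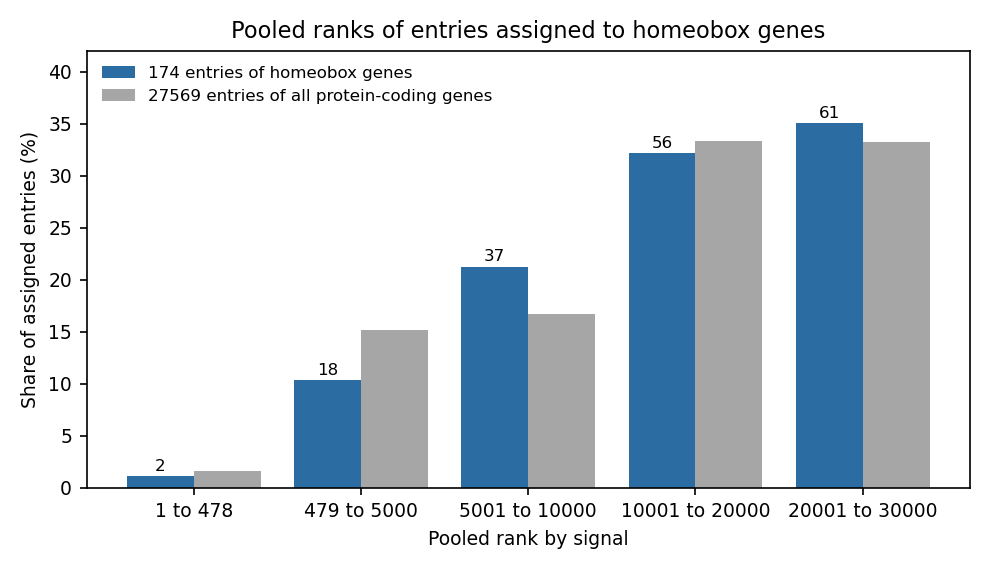
Share of assigned entries (y axis, %) in 5 bands of pooled rank (x axis), for the 174 member entries in blue and all 27569 in grey. Numbers over the blue bars are entries. The members have a smaller share than all genes between ranks 1 and 5000 and a larger one between 5001 and 10000.

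By position, 33 of 174 member entries had the summit within 500 bp of the assigned start (19%, 95% Wilson interval 13.8 to 25.4), against 28.2% of all assigned entries. Intergenic sequence outside that window held 73 (42%, 34.9 to 49.4), against 28.8%, and introns 47 (27%, 21 to 34.1), against 27.7%. Coding exons held 9 (5.17%) against 9.32%. The median distance to the start was 1622.5 bp for the members and 1079 bp for all. The larger territories of the members stand beside this difference, and their part in it was not tested. Summits of 72 entries lay inside the member itself and those of 13 inside another protein-coding gene, as at ceh-5.

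Replicate overlap was next compared. Of 174 member entries 46 (26.4%, 20.4 to 33.4) were overlapped by 1 bp or more in both replicate lists, against 32.1%, a background inside the member interval, and 21 (12.1%) were overlapped in neither, against 9.78%. The overlap went with rank. In the optimal list such overlap is favoured by construction, because that list was thresholded on reproducibility. Both optimal peaks were overlapped in both replicates, as were 97.8% of all optimal peaks assigned to a gene. At ranks 479 to 5000 it was 15 of 18 (83.3%), against 71% of all entries in that band, and at ranks 5001 to 10000 it was 17 of 37 (45.9%), against 44.8%. At ranks 10001 to 20000 it was 6 of 56 (10.7%), against 23.9%, and beyond that 6 of 61 (9.84%), against 12.9%. Outside the optimal list, the member share was higher than that of all entries down to rank 5000 and near it from 5001 to 10000. Beyond rank 10000 it was lower, and none of these differences was tested. These 174 entries are not independent, because 26 of them overlap another member entry.

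Within the list of each replicate, 61 members were assigned an entry in replicate 1 (65.1% of all genes were) and 58 in replicate 2 (63.3% of all genes), and 50 (64.1%) were in both, against 48.3% of all genes. Among the 5000 highest entries replicate 1 had 25 members (32.1%, 95% Wilson interval 22.7 to 43), against 18.7% of all genes, and replicate 2 had 15 (19.2%, 12 to 29.3), against 18%. The member share was thus above the background in replicate 1 and close to it in replicate 2 and in the pooled list. Among the 5000 highest of both replicates were 9 members (11.5%, 6.19 to 20.5), against 7.64% of all genes. The 478 highest entries included 2 members in each replicate, ceh-5 and unc-42 in replicate 1 and ceh-5 and ceh-22 in replicate 2, against 2.13% of all genes in both lists. ceh-5 was thus the 1 member placed that high by both libraries.

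**Figure D5:**
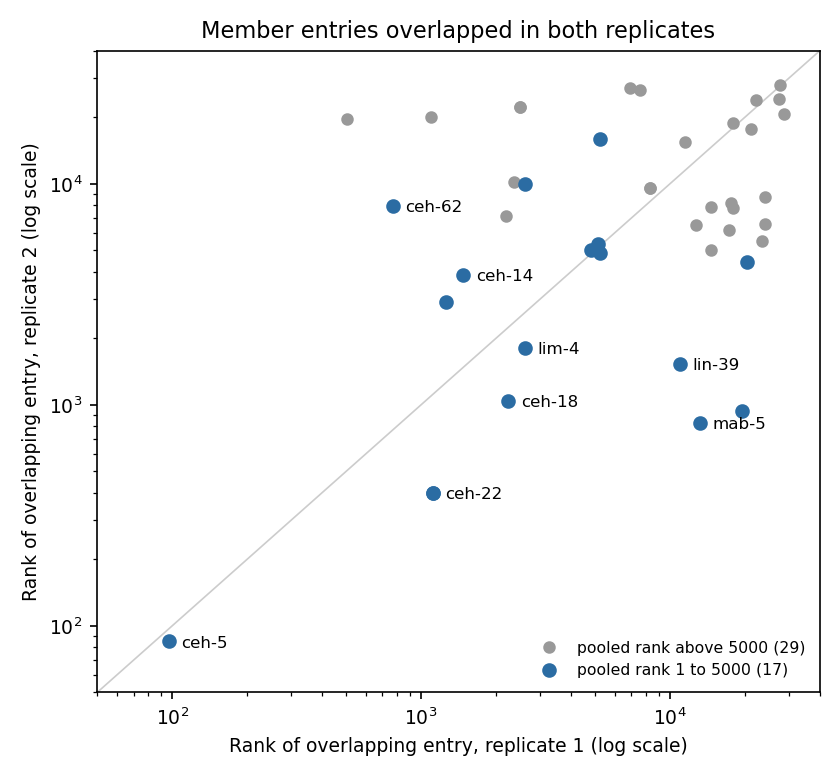
Ranks of the overlapping entries in replicate 1 (x axis, log scale) and replicate 2 (y axis, log scale) for the 46 member entries overlapped in both. Each point is 1 pooled entry, blue for the 17 of pooled rank 1 to 5000. ceh-5 sits at the lower left, at ranks 97 and 85, the leading entries of lin-39 (10969 and 1531) and mab-5 (13218 and 826) lie far below the diagonal, and the second mab-5 entry (2622 and 9937) lies above it.

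Motifs were searched on both strands of the 201 bp around each summit, and all shares are of windows of that length. CAGGTA and CAGGTG are the E-box letters known for ZEB-class proteins. CAGGTA was in 9 member windows (5.17%, 95% Wilson interval 2.74 to 9.54; 4.22% over all assigned entries) and CAGGTG in 4 (2.30%, 0.898 to 5.76; 3.91% over all). TAATTA, which equals its own reverse complement, was in 22 (12.6%, 8.50 to 18.4; 11.3% over all) and GAGAGA in 21 (12.1%, 8.03 to 17.7; 13.1% over all). The background share lay inside the member interval for each of these 4 motifs. CGTCTC and GACGCA, added after the values were seen, were in 10 (5.75%) and 5 (2.87%), against 6.37% and 4.77%. Over the 478 optimal peaks GAGAGA was in 49.4% of windows.

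GAGAGA was more frequent among the entries of higher signal, for the members and for all genes alike. It was in 8 of the 20 member entries ranked 1 to 5000 (40%), against 23.9% of all entries in that band. Of the 154 ranked lower it was in 13 (8.44%), against 10.97% of all. Neither difference from all entries was tested. The 8 lay at ceh-5, lin-39, ceh-24, ceh-74, ceh-22, unc-42, vab-7 and mab-5, and the one at ceh-22 is in the second, overlapping entry and not in the optimal peak. CAGGTA was in 1 of those 20 entries (5%), the upstream entry of lim-4, against 2.75% of all entries in that band. CAGGTG was in 0 of 20, which allows a share of up to 15%, and in 2.86% of all entries in that band. With 20 entries neither the CAGGTA nor the CAGGTG count can be told apart from its background. TAATTA was in 4 of the 20 (20%), against 10.8% of all entries in that band, a difference that was not tested. The median GC content was 32.8% for the member windows and for all windows.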

How the data were processed

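Peak lists from 2 biological replicates of 1 group were used: 4 narrowPeak lists on ce11 (1 for each replicate, 1 for both pooled, and the optimal list). Per the release notes deposited with the files, the replicate lists and the pooled list derive from the alignments and 1 further file shared by all, and the optimal list derives from those 3 lists. The score in each list is the authors' own signal value as deposited, with no formula given, and the −log10 q is that of the authors' peak caller. Neither the labels nor the release notes state the aligner, the caller, their versions or the threshold. The ce10 lists were not used, since no coordinates were converted.

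Entries were ranked by signal, then by q and position. Genes were those of Ensembl release 115 on WBcel235, the same build as ce11, and no entry ran past a chromosome's end. Summits were assigned to the nearest start of a protein-coding transcript within 5000 bp. Homeobox classes follow textbook knowledge. Python 3.11.15, numpy 2.4.6, pandas 2.3.3 and scipy 1.17.1 were used, and assignment and territories were tested on simulated starts. No test was made over the members, and intervals are Wilson intervals that cover counting error only. The read depth is unknown, so no precision from depth is given. Members, classes, motifs and the naming rule were all chosen with earlier results of these data known. The rule names members with an optimal peak, the 20 of highest rank (coordinates for 8), the 5 with most entries, 6 Hox genes and those with no entry. Other genes, and some members of lower rank, were named after their values were seen.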

Additional observations from a re-analysis of the deposited data

How the results depend on the processing

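The 62 members with a pooled entry fell to 43 within 1000 bp, 57 within 2000 bp and 51 with starts of every biotype. The count was 62 with 1 start per gene. It was 61 (78.2%) in the list of replicate 1 and 58 (74.4%) in that of replicate 2, against 65.1% and 63.3% of all genes. For the other settings the share over all genes is not given, for this count or the counts below. Whether the members stayed above all genes at those settings is therefore not shown. No paired analysis was possible because the study has 1 group. Most values rest on entries not called as bound, and with 2 members in the optimal list that count is decided by the assignment rule. It was 0 with assignment within 1000 bp, and 1 within 2000 bp, with 1 start per gene, with starts of every biotype and in the upper part of the optimal list split at its middle; ceh-5 was the one kept. With 1 replicate left out, the list of the other replaced the pooled list, and its 478 highest entries stood in for the optimal list. The count was then 2 both times, but not of the same members. They were ceh-5 and ceh-22 without replicate 1, and ceh-5 and unc-42 without replicate 2. Members among the 5000 highest entries numbered 9 within 1000 bp, and 15 to 25 without a replicate. The median entries per member fell to 1 within 1000 bp, within 2000 bp and with starts of every biotype, and was 2 without a replicate. Entries per 10 kb were 2.95 with starts of every biotype and 2.79 to 3.16 without a replicate. The median rank was 13734 to 15770 without a replicate.

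The share within 500 bp of the start was 27.3% with starts of every biotype and 20.7 to 24.1% without a replicate. By construction it was 9.77% within 250 bp and 35.6% within 1000 bp. The share overlapped in both replicates was 17.2% when 50% of both entries had to overlap, 11.5% with summits within 100 bp and 5.75% against the 5000 highest of each. Motif shares moved with the window, as its length implies: with 50 bp on each side CAGGTA was at 3.45%, TAATTA at 6.90% and GAGAGA at 9.20%, and with 150 bp CAGGTG was at 5.17%, TAATTA at 17.2% and GAGAGA at 16.1%. Leaving out a replicate gave CAGGTA 4.71 to 6.67%, CAGGTG 3.33 to 5.88% and GAGAGA 12.4 to 14.7%. The cause of the other moves was not tested.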

Other observations

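Some pooled entries lay inside member genes and were assigned elsewhere, because another gene's start was nearer or none lay within 5000 bp. There were 17 of these in 14 members, and 0 were optimal. The share of all genes that hold such an entry is not given, so these counts have no background beside them. The highest was in ceh-8 (rank 3508, chrI:8245448-8245791), in an annotated UTR and assigned to col-63, with overlapping entries of rank 6892 and 4836 in replicates 1 and 2. The next was in ceh-93 (rank 3694), assigned to ife-2, and the third in vab-3 (rank 5900). Of the 16 members with no assigned pooled entry, 3 held such an entry: ceh-8, ceh-99 and ceh-100.

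Homeobox genes outside the list were examined as well. Over all protein-coding genes 63% had a pooled entry and 2.18% an optimal peak, at 3.02 entries per 10 kb. The further lists are short, with 6 and 17 genes, and neither was tested against all genes. The 6 ONECUT genes had 2 members with an optimal peak, ceh-38 (rank 18, signal 80.3) and ceh-48 (rank 432, signal 30.7), and 12 pooled entries at 4.51 per 10 kb. Of 17 further homeobox genes 13 had a pooled entry and 0 an optimal peak, at 2.88 entries per 10 kb. The highest ranked of these were vab-15 (rank 1831), an Msx gene of touch neuron development, and pha-2 (rank 2126), a pharynx gene. The POU gene unc-86 had a best rank of 9481 and the LIM gene mec-3 of 7596. zag-1 itself, unc-39, pax-3 and duxl-1 had 0 pooled entries.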
